A study of Mus musculus with 21 samples.

Results

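The genes described are 31 members of cholesterol metabolism, chosen by name from the 22050 entries of the expression table: 18 enzymes that build cholesterol, 4 genes that control their transcription, 3 that move sterols inside the cell, 5 of liver X receptor (LXR) signalling and sterol export, and the high-density lipoprotein receptor gene Scarb1. All 31 were present and had a mean value high enough to be tested. They were measured by 3′ mRNA-seq in 8 samples of GFP+ epidermal keratinocytes sorted from mouse dorsal skin, 4 of the genotype K5-rtTA/tet-GFP (control) and 4 of the genotype K5-rtTA/tet-GFP/tet-p16 (p16), all of a mixed FVB, C57Bl and 129sv background. Mice of both genotypes received doxycycline from 3 weeks of age for 6 months, so the controls also carried rtTA and induced GFP, and the groups differ by the human p16 transgene. p16 is a cell-cycle inhibitor of senescent cells. The keratin 5 promoter drives rtTA in basal cells of the epidermis and its appendages, CD140a+, CD45+ and CD31+ cells were gated out, and each sample pooled about 80000 cells of 3 mice. The methods state that the 4 replicates came from 3 experiments, without saying which replicates shared one. The other 13 samples of the series were not analysed here.

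Cells build cholesterol from acetyl-CoA. Enzymes of the mevalonate steps make isoprenoid units, these are joined into squalene, and squalene is closed into a ring and trimmed to cholesterol. The transcription factor SREBP2, encoded by Srebf2, raises the transcription of these enzymes. Its carrier SCAP brings it to the Golgi for activation when sterols are scarce, and the INSIG proteins hold both back in the endoplasmic reticulum when sterols are plentiful. LXR, encoded by Nr1h2 and Nr1h3, senses oxidized sterols and drives export pumps such as ABCA1. In skin, cholesterol is both a lipid of the outer barrier and a product of sebaceous glands.

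Most synthesis enzymes had lower mean values in p16 than in control samples, but few passed the test. Calls were made at an adjusted p under 0.05 (limma on log2(normalized read count + 1), Benjamini-Hochberg over the 12782 genes tested). Of the 31 members, 3 fell, against 2.61% of all genes tested that were called lower. They were Insig2, a brake on SREBP2, the isomerase gene Idi1 and the methyl sterol oxidase gene Msmo1. No member rose by limma, edgeR or DESeq2, against 1.24%, 1.5% and 1.22% of all genes called higher by each. At an unadjusted p under 0.05, 11 members were lower and 3 higher, beside 8.93% and 7.02% of all genes. The log2 fold change was below 0 in 23 members and in 50.4% of all genes, and its median was -0.32 in the members and -0.003 in all genes. With each sample left out in turn, 3 to 5 members fell, beside 1.39% to 2.68% of all genes, with the highest count without p16 replicate 4. Without replicate 3 of both groups, 1 member fell, Insig2, beside 1.23% of all genes.

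**Figure D1:**
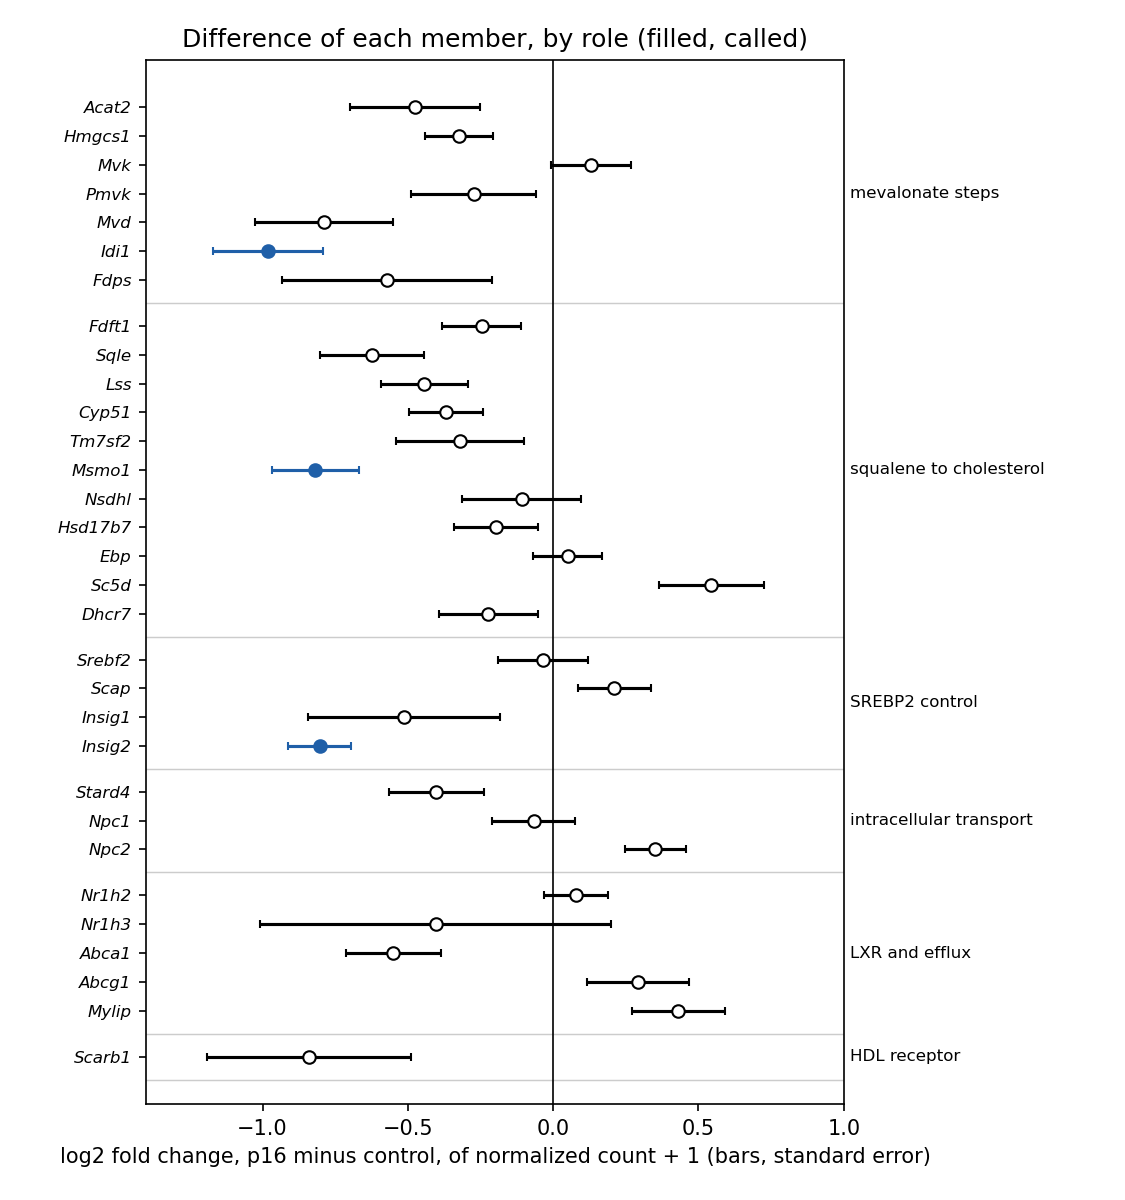
Log2 fold change (x axis, p16 minus control on the log2(normalized read count + 1) scale) of each of the 31 members, grouped by role, with bars for the standard error and filled points for the 3 genes called. The points run from -0.98 for Idi1 to 0.54 for Sc5d, and 23 of them lie left of 0.

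The stretch of DNA before the start of a gene can be set beside its values. RefSeq promoter windows (GRCm38.p6, from 250 bases before to 50 after an annotated start) were found for 24 members. They were searched on both strands for 5 motifs: the sterol regulatory element bound by SREBP (TCACCCCAC, and TCACNCCAC, which includes the former), the NF-Y motif CCAAT, the Sp1 motif GGGCGG, the E-box CACGTG, and the LXR element of direct AGGTCA repeats with a spacer of 4 bases. NF-Y and Sp1 are general factors known to act beside SREBP. Windows of the 3 genes that fell are shown first, with CCAAT, or ATTGG for its reverse strand, in capitals.
Idi1, chr13:8885356-8885655, + strand: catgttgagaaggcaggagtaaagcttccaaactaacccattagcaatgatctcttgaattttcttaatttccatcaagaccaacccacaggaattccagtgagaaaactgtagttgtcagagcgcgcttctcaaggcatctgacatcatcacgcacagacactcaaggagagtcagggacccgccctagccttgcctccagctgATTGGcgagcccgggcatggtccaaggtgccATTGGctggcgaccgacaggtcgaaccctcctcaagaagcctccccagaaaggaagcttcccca
Msmo1, chr8:64733529-64733828, − strand: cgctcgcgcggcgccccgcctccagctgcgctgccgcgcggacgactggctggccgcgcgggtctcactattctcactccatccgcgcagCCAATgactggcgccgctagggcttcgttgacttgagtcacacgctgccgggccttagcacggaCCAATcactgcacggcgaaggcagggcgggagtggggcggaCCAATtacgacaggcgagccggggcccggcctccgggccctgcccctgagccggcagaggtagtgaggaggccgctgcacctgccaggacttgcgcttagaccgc
Insig2, chr1:121332540-121332839, − strand: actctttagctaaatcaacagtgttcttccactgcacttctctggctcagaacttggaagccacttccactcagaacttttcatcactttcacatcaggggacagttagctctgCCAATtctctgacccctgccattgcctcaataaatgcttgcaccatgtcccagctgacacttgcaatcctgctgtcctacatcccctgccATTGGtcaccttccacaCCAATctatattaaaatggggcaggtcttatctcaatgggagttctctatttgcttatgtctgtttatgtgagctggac
The Msmo1 and the Insig2 window each held 3 CCAAT matches and the Idi1 window held 2. The other Insig2 windows, which begin at other annotated starts, held none. Which start these cells used was not tested. None of the 3 genes held the sterol regulatory element in these letters. Looser forms of it were not searched, so a window without these letters is not shown to lack the element. Hmgcs1, the synthase that opens the mevalonate route, was the only one of the 24 members that held these letters, at bases -137 to -129 from its start site. Its window is shown with that element and the CCAAT matches in capitals, followed by those of Srebf2 and Abca1.
Hmgcs1, chr13:119690101-119690400, + strand: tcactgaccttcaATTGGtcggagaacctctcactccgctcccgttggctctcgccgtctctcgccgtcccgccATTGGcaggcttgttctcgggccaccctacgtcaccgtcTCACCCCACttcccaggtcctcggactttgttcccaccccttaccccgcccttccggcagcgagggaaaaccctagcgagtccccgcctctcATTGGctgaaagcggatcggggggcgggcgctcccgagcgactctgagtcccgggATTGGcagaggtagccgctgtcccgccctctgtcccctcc
Srebf2, chr15:82147019-82147318, + strand: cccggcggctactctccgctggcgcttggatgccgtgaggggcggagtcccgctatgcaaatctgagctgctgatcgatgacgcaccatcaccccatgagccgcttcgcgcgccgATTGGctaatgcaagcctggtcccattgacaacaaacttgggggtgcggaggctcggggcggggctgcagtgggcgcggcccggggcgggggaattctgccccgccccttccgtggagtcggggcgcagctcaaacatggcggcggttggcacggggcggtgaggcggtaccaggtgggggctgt
Abca1, chr4:53159846-53160145, − strand: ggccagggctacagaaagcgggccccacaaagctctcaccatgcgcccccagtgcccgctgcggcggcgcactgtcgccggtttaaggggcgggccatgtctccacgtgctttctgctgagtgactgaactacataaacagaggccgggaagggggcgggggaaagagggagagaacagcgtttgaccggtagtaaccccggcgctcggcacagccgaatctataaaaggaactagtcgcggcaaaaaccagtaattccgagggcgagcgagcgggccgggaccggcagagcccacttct

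CCAAT was in a window of 19 of the 24 members and of 14 of the 15 synthesis enzymes that had one, and the exception was Acat2. Of the 9926 tested genes with a window, 43.0% held it. Within the last 100 bases before the start it was found in 13 of the 15 enzymes and in 26.2% of the tested genes. GGGCGG was in 14 of the 15 enzymes and 69.0% of the tested genes, and the E-box in 6 of the 24 members and 11.7%. The sterol regulatory element was in 0.735% of the tested genes, or 1.40% with the base N free. The LXR element in these exact letters was in 0 of the 24 members and in 0 of the 9926 tested genes. The search for it thus could not set members apart, and looser forms of the element were not searched. These matches are letters in a window and were not tested as binding sites. They were shared by enzymes that fell, such as Idi1, and by enzymes with a higher mean in p16 samples, such as Mvk and Sc5d.

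**Figure D2:**
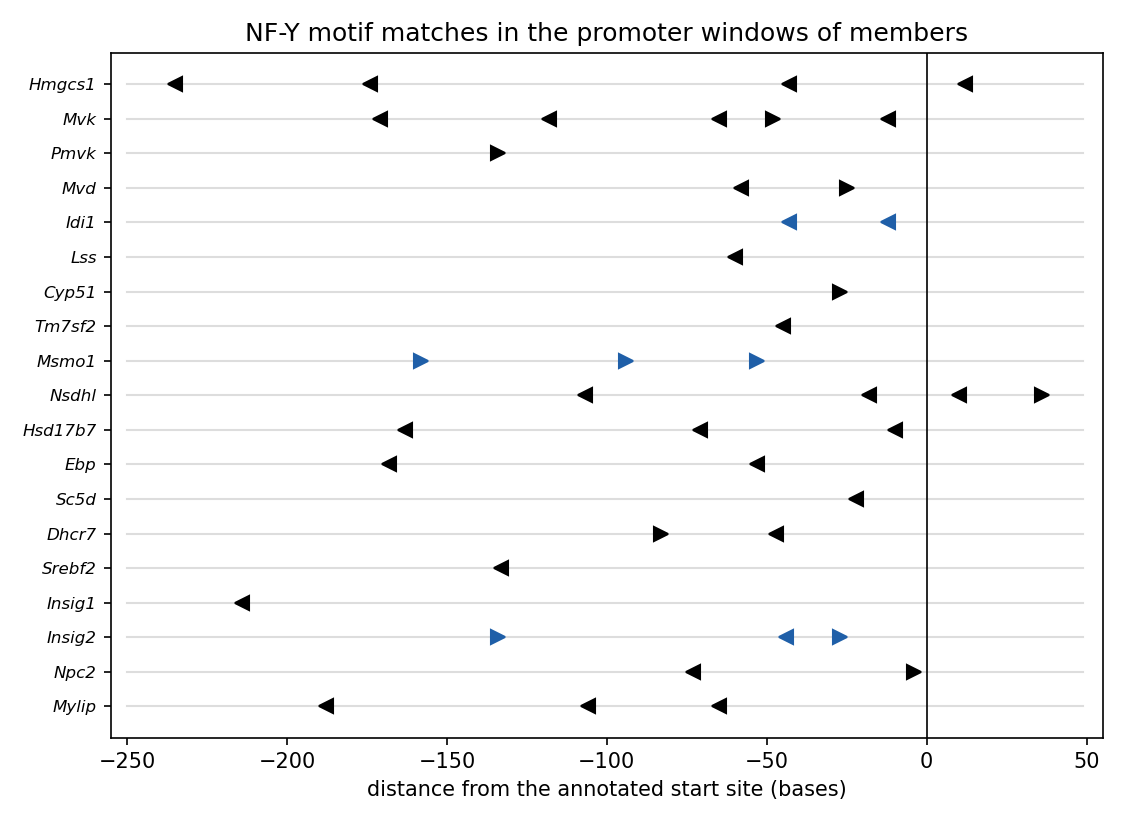
Position of each NF-Y motif match (x axis, bases from the annotated start site) in the promoter windows of the 19 members that held at least 1. Right-pointing marks are matches on the strand of the gene, left-pointing marks on the other strand, and the 3 genes that fell are in blue. Most marks lie within 100 bases before the start.

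The transgenes were checked first in expression. Human CDKN2A had normalized counts of 0.7, 1.3, 2.5 and 1.5 in control replicates 1 to 4, which are 1 to 3 reads, and of 1.6, 10.1, 16 and 7.4 in p16 replicates 1 to 4. The p16 replicate 1 value lay within the control range, and the difference did not pass (exact two-sided permutation p = 0.0571, limma adjusted p = 0.0952). EGFP was present in every sample, at 5330 ± 809 in control and 3555 ± 341 in p16 samples (SD, n = 4), a log2 fold change of -0.58 (SE 0.12, limma adjusted p = 0.0167). Total reads on genes were 1760953 to 3414362 in control and 2884544 to 3202975 in p16 samples. The extraction labels of replicate 3 in both groups name another library protocol than those of the other replicates, which name CEL-Seq.

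The mevalonate steps hold 7 members. Idi1, whose enzyme interconverts the activated isoprene units, had normalized counts of 85.3, 65.5, 86.0 and 102.4 in control replicates 1 to 4 and of 36.0, 39.0, 37.2 and 59.2 in p16 replicates 1 to 4. The groups did not overlap, and p16 replicate 4 was the highest p16 sample. Idi1 fell by 0.98 on the log2 scale (SE 0.19, limma adjusted p = 0.00948, exact two-sided permutation p = 0.0286, the smallest that 4 against 4 samples can give). The gene lies at chr13:8885501-8892451 (GRCm38, GENCODE M21).

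Mvd, which makes isopentenyl diphosphate, the unit on which Idi1 acts, was measured at 48.2, 27.0, 43.4 and 48.9 in control samples and at 19.2, 27.3, 18.6 and 29.6 in p16 samples. Control replicate 2 lay within the p16 range. Its log2 fold change of -0.79 (SE 0.24) did not pass (limma adjusted p = 0.0929). Of 8 fits with 1 sample left out, Mvd passed only without control replicate 2 (limma adjusted p = 0.0310, up to 0.244 in the others). Hmgcs1 was measured at 1141, 1196, 1194 and 872.4 in control and at 785.2, 982.2, 923.0 and 814.0 in p16 samples. Here control replicate 4 stood below the other controls and inside the p16 range. The log2 fold change of Hmgcs1 was -0.32 (SE 0.12, limma adjusted p = 0.170). Hmgcs1 passed in 1 of 8 such fits, that without control replicate 4 (limma adjusted p = 0.0408, up to 0.407 in the others).

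The other mevalonate members overlapped between the groups and did not pass. Acat2, the thiolase that joins acetyl-CoA units, was at 122 ± 30.7 in control and 88.7 ± 27.8 in p16 samples (SD, n = 4). Fdps, which joins the isoprene units into farnesyl diphosphate, was at 31.2 ± 15.5 and 20.2 ± 9.52. Both kinases of the route differed little beside their spread, Pmvk with a log2 fold change of -0.27 (SE 0.22) and Mvk with 0.13 (SE 0.14). Mvk was the only member of this group with a higher mean in p16 samples.

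Of the 11 members between squalene and cholesterol, 9 had a lower mean in p16 samples and 1 fell. Msmo1, which starts the removal of the methyl groups from the sterol ring, was measured at 259.6, 187.4, 249.7 and 239.9 in control and at 105.5, 146.8, 117.9 and 162.8 in p16 replicates 1 to 4. All p16 samples lay below all controls. Msmo1 (chr8:64718139-64733792) fell by 0.82 on the log2 scale (SE 0.15, limma adjusted p = 0.00635, exact permutation p = 0.0286). In the samples labelled CEL-Seq alone, 3 against 3, neither Msmo1 (limma adjusted p = 0.0723) nor Idi1 (limma adjusted p = 0.0822) passed, with log2 fold changes of -0.73 and -0.91. Insig2 was the 1 member that fell there, beside 1.23% of all genes.

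Sqle, the squalene epoxidase that is a slow step of the route, was at 88.3, 91.1, 75.2 and 74.9 in control and at 44.0, 61.7, 41.7 and 69.1 in p16 samples. The groups did not overlap, but p16 replicate 4 came close to the lowest control. The log2 fold change of Sqle was -0.62 (SE 0.18, limma adjusted p = 0.0737). Sqle passed in 1 of 8 fits with 1 sample left out, that without p16 replicate 4 (limma adjusted p = 0.0208, up to 0.217 in the others). Lss, which closes the ring to lanosterol, was at 83.8, 68.0, 78.5 and 103.9 in control and at 57.6, 63.2, 61.2 and 60.0 in p16 samples. These values did not overlap either, and the p16 samples were close together, with a log2 fold change of -0.44 (SE 0.15, limma adjusted p = 0.139). Cyp51, the lanosterol demethylase, had a log2 fold change of -0.37 (SE 0.13, limma adjusted p = 0.145). Cyp51 also passed in 1 of the 8 fits, that without p16 replicate 4 (limma adjusted p = 0.0316, up to 0.346 in the others). In that sample it was measured at 182.5, beside 128.6 to 148.3 in the other p16 samples and 175.8 to 218.1 in controls.

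Sc5d, the sterol desaturase of a late step, went the other way. It was at 23.7, 21.8, 26.7 and 27.5 in control and at 36.8, 36.7, 34.6 and 38.6 in p16 samples, on 17 to 32 and 39 to 47 reads. Every p16 value was above every control value. The log2 fold change of Sc5d was 0.54 (SE 0.18), with an exact permutation p of 0.0286 and a limma adjusted p of 0.129, so it did not pass over all genes. Among the other late enzymes Ebp, the sterol isomerase, had nearly equal means, 223 ± 27.1 in control and 230 ± 26.4 in p16 samples (SD, n = 4). Fdft1 (squalene synthase), Tm7sf2 (a sterol reductase), Nsdhl and Hsd17b7 (which act with Msmo1 on the methyl groups) and Dhcr7 (which makes cholesterol from its direct precursor) had log2 fold changes between -0.32 and -0.11, all overlapping and none called.

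**Figure D3:**
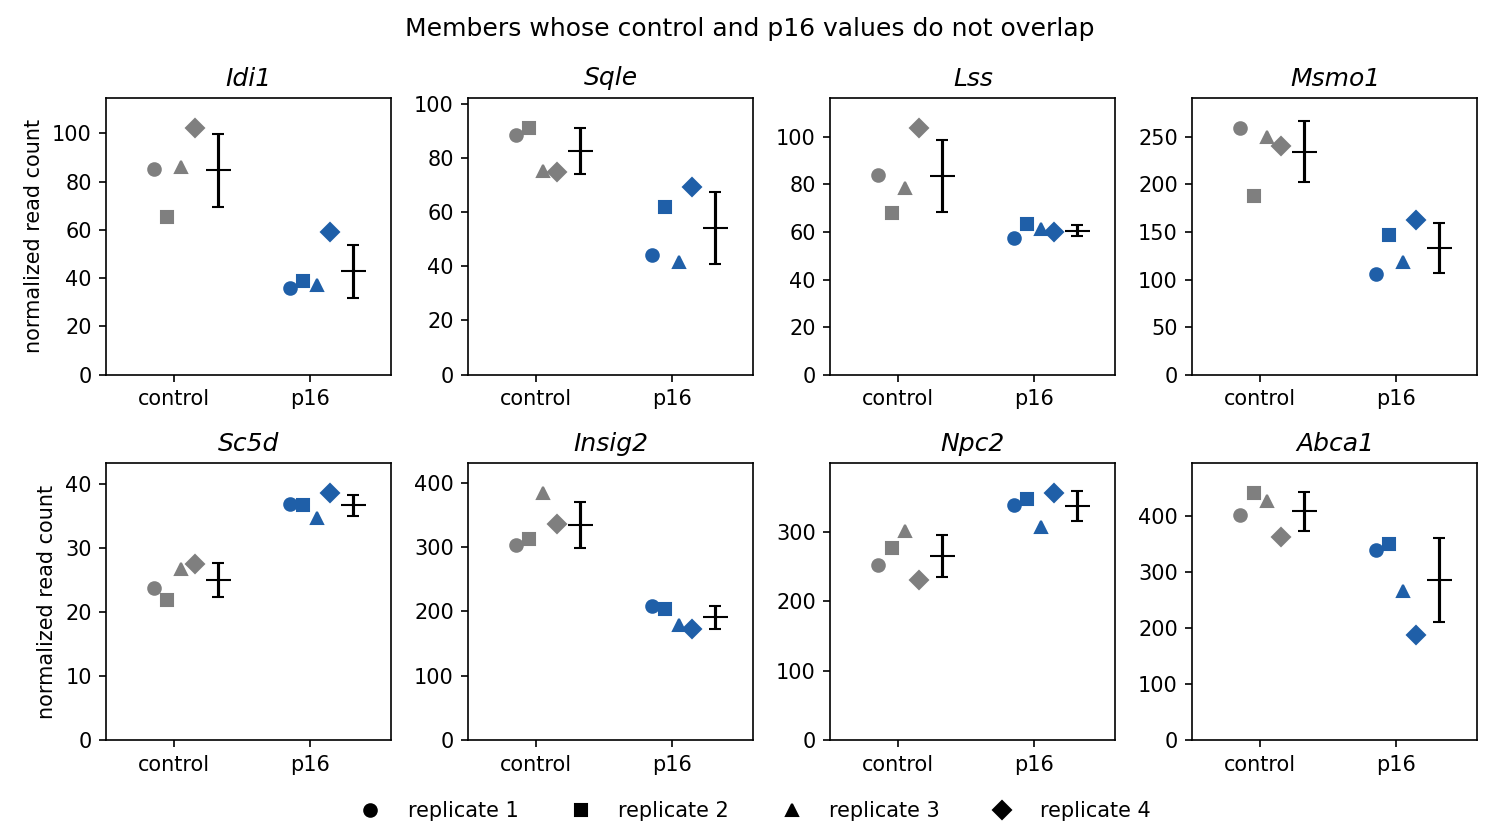
Normalized read count (y axis, from 0) of the 8 members whose control and p16 values did not overlap, with 1 mark per sample, the shape giving the replicate, and the mean with its SD beside them. The p16 samples sit below the controls in Idi1, Sqle, Lss, Msmo1, Insig2 and Abca1 and above them in Sc5d and Npc2.

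Counted over all members, 6 had every p16 value below every control value and 2 the reverse, beside 5.63% and 4.19% of all genes tested. Of the 18 synthesis enzymes, 15 had a lower mean in p16 samples, 4 did not overlap in that direction, 2 fell, and the median log2 fold change was -0.32. The mevalonate steps had a median of -0.48 and the steps from squalene of -0.25.

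p16 replicate 4 stood apart from the other p16 samples in most enzymes. For each sample, the log2 difference of every enzyme from its control mean was taken, and the median over the 18 enzymes was 0.03, -0.19, 0.06 and 0.14 in control replicates 1 to 4. It was -0.41, -0.41 and -0.48 in p16 replicates 1, 2 and 3, and 0.08 in p16 replicate 4. Thus 3 p16 samples lay below all controls and the last lay within the control range. In p16 replicates 1, 2 and 3, 16, 16 and 17 of the 18 enzymes were below their control mean, and in p16 replicate 4 only 8 were. It was the highest p16 sample for 16 of the 18 enzymes, beside 30.8% of all genes tested, and it was above every control for 4 of the 18. Among p16 replicates 1, 2 and 3 no sample was the lowest throughout (5, 4 and 9 enzymes). In these 3 samples together, 8 of the 18 enzymes were below every control, beside 7.82% of all genes tested. Without p16 replicate 4 the enzymes' median log2 fold change was -0.43, 16 of 18 were lower and 4 fell. The genes that then passed in addition were Sqle and Cyp51. p16 replicate 4 was singled out by the values of these same enzymes. Leaving it out lowers them by that choice, so 7.82% of all genes is not a like comparison for these counts.

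Replicate 4 was also the highest control sample for 9 of the 18 enzymes, beside 27.7% of all genes tested. It was the highest sample of both groups for 8 enzymes: Acat2, Mvk, Mvd, Idi1, Fdps, Fdft1, Hsd17b7 and Sc5d. The share of all genes highest in replicate 4 of both groups was not computed. Since p16 replicate 4 was the highest p16 sample for 16 of the 18 enzymes, most enzymes highest in control replicate 4 had to be shared. The count of 8 thus does not link these samples. By a chi-square test of the reads over genes, p16 replicate 4 also differed more from the other p16 samples (6.40 to 8.49 per degree of freedom) than these did from each other (2.95 to 3.19). Its CDKN2A value of 7.4 lay between those of p16 replicates 1 and 2. Whether the shared number reflects a shared experiment is not given in the sources used here.

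**Figure D4:**
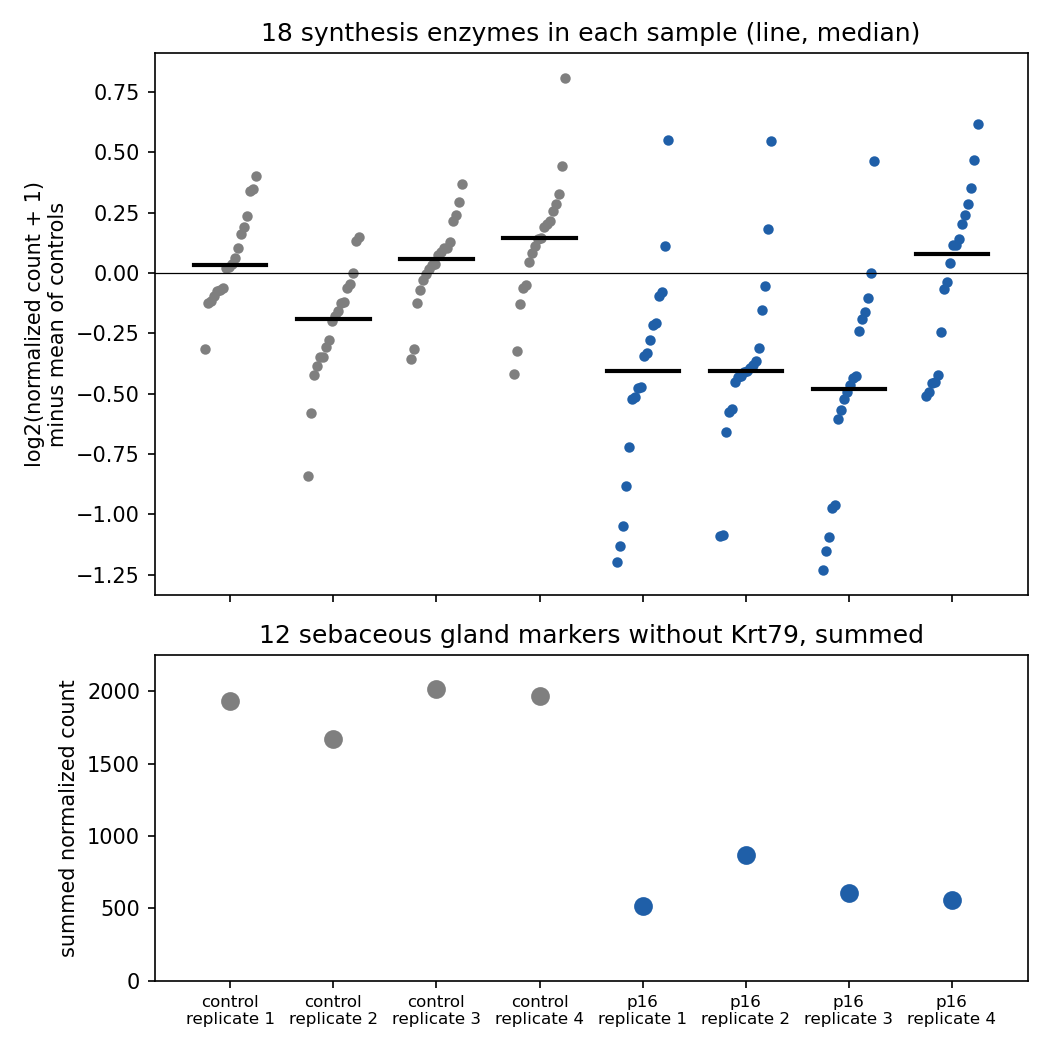
Upper panel, log2(normalized read count + 1) of each of the 18 synthesis enzymes minus its control mean (y axis) in each sample, with the median as a line. Lower panel, summed normalized read count of the 12 listed sebaceous gland markers other than Krt79 in the same samples. The enzyme medians of p16 replicates 1, 2 and 3 lie near -0.41 to -0.48 and that of p16 replicate 4 at 0.08, while the marker sum is below all controls in all 4 p16 samples.

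Among the genes of SREBP2 control, Insig2 fell and Srebf2 did not differ beyond its spread. Insig2, which retains the SREBP2 carrier in the endoplasmic reticulum, was at 303.4, 313.1, 384.2 and 336.1 in control and at 208.7, 203.8, 178.2 and 172.7 in p16 samples. The groups were widely apart, and p16 replicate 4 was here the lowest of all samples. With means of 334 ± 36.0 and 191 ± 18.03 (SD, n = 4), Insig2 (chr1:121304353-121332589) fell by 0.80 on the log2 scale (SE 0.11, limma adjusted p = 0.000705, exact permutation p = 0.0286). It was called under each of 19 alternatives, with adjusted p from 9.26e-08 to 0.0155.

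Srebf2 was at 290.8, 278.5, 284.8 and 380.4 in control and at 270.3, 256.9, 271.3 and 424.3 in p16 samples. Replicate 4 was by far the highest sample in both groups, and the other samples lay between 256.9 and 290.8. The log2 fold change of Srebf2 was -0.03 (SE 0.15, limma adjusted p = 0.953). Scap, the carrier gene, was at 171 ± 23.3 in control and 197 ± 21.3 in p16 samples (SD, n = 4) and did not pass. Insig1, the paralog of Insig2 and itself a known target of SREBP2, was near the limit of detection, at 7.6 to 15.6 in control and 4.0 to 8.2 in p16 samples on 5 to 21 and 5 to 10 reads. No difference of Insig1 was detectable at this depth (log2 fold change -0.51, SE 0.33, limma adjusted p = 0.5004).

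None of the 3 carriers of sterol inside the cell passed by limma, edgeR or DESeq2, and at an unadjusted limma p under 0.05 there was 1 lower, Stard4, and 1 higher, Npc2. Npc2, a lysosomal protein that takes up cholesterol freed from lipoproteins, was at 251.5, 277.2, 300.7 and 230.7 in control and at 339.0, 347.4, 306.8 and 356.0 in p16 samples. All p16 values lay above all control values, although p16 replicate 3 was close to control replicate 3, and the log2 fold change of 0.35 (SE 0.11) did not pass for Npc2 (limma adjusted p = 0.0883). Its membrane partner Npc1 had means of 90.8 ± 10.1 and 86.8 ± 11.7 (SD, n = 4). Stard4, a cytosolic sterol carrier and a known SREBP2 target, was at 69.7 ± 11.4 in control and 52.3 ± 6.13 in p16 samples, a log2 fold change of -0.40 (SE 0.16, limma adjusted p = 0.233).

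No gene of LXR signalling and export passed the limma test, and at an unadjusted p under 0.05 there was 1 lower and 1 higher, Abca1 and Mylip. edgeR and DESeq2 called none of them either. Abca1, the pump that loads cholesterol onto lipoproteins, was at 402.1, 441.5, 427.6 and 362.1 in control and at 339.8, 350.6, 266.9 and 187.5 in p16 samples. The groups did not overlap, and p16 replicate 4 was far below the rest. The log2 fold change of Abca1 was -0.55 (SE 0.16, limma adjusted p = 0.0875). Abca1 passed in 1 of 8 fits with 1 sample left out, that without p16 replicate 2 (limma adjusted p = 0.0408, up to 0.186 in the others). Without p16 replicate 4 the log2 fold change of Abca1 was -0.36 (limma adjusted p = 0.103).

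Mylip, whose product marks lipoprotein receptors for degradation, was at 170.6, 306.7, 238.0 and 229.2 in control and at 278.2, 291.2, 296.1 and 394.7 in p16 samples. Control replicate 2 lay inside the p16 range, and the log2 fold change of Mylip was 0.43 (SE 0.16, limma adjusted p = 0.185). The export pump gene Abcg1 was at 47.1 ± 6.08 in control and 58.2 ± 10.4 in p16 samples (SD, n = 4), and did not pass. Of these known LXR targets, Abca1 thus had a lower mean in p16 samples and Abcg1 and Mylip higher means. Of the receptors, Nr1h2 was at 412 ± 17.1 and 438 ± 63.0. Nr1h3 had at most 7 reads in any sample, too few to compare. Scarb1, which takes up cholesterol from high-density lipoprotein, was at 11.6 to 30.6 in control and 6.4 to 18 in p16 samples, on 8 to 26 reads, with a log2 fold change of -0.84 (SE 0.35, limma adjusted p = 0.2502).

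The other genes of sterol metabolism, a list of 60 with 59 tested, had a median log2 fold change of -0.03. Of these, 5 fell, and none rose by limma, edgeR or DESeq2, beside 2.61% of all genes called lower and 1.24% called higher by limma. Without adjustment of p, 12 were lower and 2 were higher, beside 8.93% and 7.02% of all genes. Of the 5, those described here are Soat1, Lpcat3 and Cyp27a1.

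Soat1, which stores cholesterol as esters and is known from sebaceous cells, fell from 43.8, 29.5, 48.4 and 16.8 in control to 4.8, 10.1, 4.4 and 4.9 in p16 samples, on 11 to 59 and 5 to 13 reads. Its log2 fold change was -2.30 (SE 0.35, limma adjusted p = 0.00192). Lpcat3, a phospholipid-remodelling enzyme and a known LXR target, fell by 0.64 (SE 0.12, limma adjusted p = 0.0071), from 239 ± 18.3 to 154 ± 21.8 (SD, n = 4). Cyp27a1, the sterol hydroxylase that makes an LXR ligand, was at 100 ± 14.6 and 58.1 ± 18.4, a log2 fold change of -0.83 (SE 0.21, limma adjusted p = 0.0435). The call of Cyp27a1 was lost without any of control replicates 1, 2, 3 or 4 or p16 replicate 1, with limma adjusted p up to 0.1297.

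Some markers of other cell types of the skin differed between the groups. Of 12 tested sebaceous gland markers, limma called 8 lower and none higher, with a median log2 fold change of -1.74. The sum of the 13 listed was 6059 to 8404 in control and 4758 to 5683 in p16 samples, and Awat1 and Mc5r had 3 reads or fewer in every sample. Without Krt79, which made up most of that sum, it was 1671 to 2018 in control replicates, and 514.9, 871.4, 603 and 554.9 in p16 replicates 1 to 4. Scd1 and Mgst1 made up most of this remaining sum in every sample. The sum was thus low in p16 replicate 4, the sample in which the median of the synthesis enzymes lay within the control range, while Soat1 and Insig2 were below every control. The part of sebaceous cells in the differences was not tested, and fewer such cells and less RNA per cell cannot be told apart in bulk samples.

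Of 7 hair follicle stem cell markers limma called 5 lower and none higher, with sums of 11670 to 15880 in control and 9024 to 9100 in p16 samples. Krt15 made up most of these sums. Postn went the other way, with a higher mean in p16 samples (log2 fold change 0.73, limma adjusted p = 0.272). Of 4 tested melanocyte markers 2 were called lower, with overlapping sums of 63.4 to 411 and 13.9 to 80.4 (Tyr at 3 reads or fewer in every sample). Of 6 basal keratinocyte markers limma called none, and their sums overlapped, at 23440 to 40560 and 25300 to 28930. Of 7 differentiated keratinocyte markers, 2 were called lower and 1 higher, with sums of 5986 to 8373 and 6430 to 9834. Fibroblast markers summed to 10.8 to 27.3 in control and 42.8 to 220.7 in p16 samples, with 1 of 5 tested, Dcn, called higher and Col3a1 and Lum at 3 reads or fewer everywhere. Without Dcn, left out after its values were seen, the sums overlapped, at 6.6 to 21.4 in control and 6.6 to 17.7 in p16 samples, and Col1a2 was lower in every p16 sample (log2 fold change -1.51, limma adjusted p = 0.0571). No endothelial, T cell or myeloid marker was called by limma, and their sums overlapped at 4.6 to 8.2 and 7 to 11.2, 7.6 to 18 and 4.5 to 14.1, and 86 to 102.4 and 90.4 to 123.9. In every sample, Cdh5, Emcn and Kdr, Cd2, Cd3e and Ptprc, and Csf1r and Lyz2 had 3 reads or fewer. Their part in the members' values was not tested.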

How the data were processed

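The authors made 3′ libraries (adapted CEL-Seq2), used Cutadapt for trimming and TopHat2 for alignment to GRCm38, and ran DESeq2 for the comparison. The submitters' processing notes also name HTSeq. The annotation version, the strand setting of the counting and the use of molecular identifiers are not given in the sources used here. In the deposited table each signal value is a gene's reads over the size factor of its sample, rounded to 1 decimal. Reads were recovered from them (at least 99.9% of values whole within 0.05 reads). The table also holds 6 columns of group means and of the authors' own comparison, which were not used. Of 22050 entries, 6658 were at 0 in every sample. Columns were matched to samples by the group and number in their names.

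Groups were compared, 4 against 4, with limma 3.58.1 (eBayes with trend, R 4.3.3) on log2(value + 1) for the 12782 genes with a mean of at least 1, without covariates. A fold change on this scale understates that of low genes. The difference of means of single genes was also tested by exact two-sided permutation. No replicate pair agreed within sampling noise. Alternatives were a pseudocount of 0.1, no filter or a mean of at least 10, a replicate block, each sample left out, the CEL-Seq-labelled samples alone, total count scaling, unadjusted p, and edgeR 4.0.16 and DESeq2 1.42.0 on the recovered reads. On simulated counts with 200 genes changed by 2-fold, limma called 88.5% of them, and 5.85% of its calls were unchanged genes (12774 genes). The changed genes were drawn only from genes with higher mean values. In the main fit the members differed by less than 2-fold, so the share called does not carry over to them.

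The members and lists were chosen with earlier results of these data known. All members were named, with every called gene of the related list except some that meet the rule and are not reported here, and at most 3 markers per list other than those near 0. The rule for promoters gave Srebf2 and Abca1, since neither called enzyme held the sterol regulatory element in the letters searched. The windows of Idi1, Msmo1, Insig2 and Hmgcs1 were chosen after values and matches were seen, as was the sebaceous sum without Krt79. A planned comparison of INSIG and LXR proteins was not run. Exons of 10 members overlap those of another annotated gene, which for Cyp51, Fdft1, Fdps, Npc1 and Tm7sf2 is a protein-coding gene, so their reads are less certain. The same holds for Lpcat3 of the related list, whose exons overlap those of the protein-coding gene Emg1 on the opposite strand. p-values measure the spread between pooled samples.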

Additional observations from a re-analysis of the deposited data

Results flagged for a closer look

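In 9 of 72 groups of 4 samples (the control and the p16 values of each named gene) 1 sample lay far from the other 3 by Dixon's test, which chance alone does in about 1 of 20 groups. Replicate 4 accounted for 7 of them. In p16 replicate 4 the normalized counts of Pmvk (75.6, beside 40.8 to 43.7), Idi1 (59.2, beside 36.0 to 39.0), Nsdhl (110.2, beside 72.6 to 78.9), Srebf2 (424.3, beside 256.9 to 271.3) and Mylip (394.7, beside 278.2 to 296.1) were above the other p16 samples. In control replicate 4 Srebf2 was high (380.4, beside 278.5 to 290.8) and Hmgcs1 low (872.4, beside 1141 to 1196). Insig1 was low in p16 replicate 1 (4.0, beside 7.8 to 8.2), and Soat1 was high in p16 replicate 2 (10.1, beside 4.4 to 4.9).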

How the results depend on the processing

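Leaving out 1 sample at a time changed the sign of 5 uncalled members. Log2 fold changes ran from -0.248 to 0.0255 for Nsdhl, from -0.0172 to 0.121 for Ebp, from -0.201 to 0.0708 for Srebf2, from -0.135 to 0.0200 for Npc1 and from -0.697 to 0.233 for Nr1h3. That of Nsdhl was 0.0433 in the CEL-Seq-labelled samples, and that of Srebf2 was 0.00191 with total count scaling. No other member, and none of Soat1, Lpcat3 and Cyp27a1, changed sign. With each sample left out in turn, 3 to 5 members and 2 to 4 synthesis enzymes fell, the highest counts being those without p16 replicate 4, and 4 to 6 related genes fell, beside 1.39% to 2.68% of all genes in the same fits. In the CEL-Seq-labelled samples alone 1 member (Insig2), 0 synthesis enzymes and 3 related genes fell. That comparison has fewer samples. At an unadjusted p, 11 members, 7 synthesis enzymes and 12 related genes were lower, and 3 members and 2 related genes were higher. Cyp27a1 was called under 10 of 19 alternatives, Lpcat3 under 18 (limma, edgeR or DESeq2 adjusted p up to 0.0596) and Soat1 under all 19. Total count scaling moved the median of all genes to 0.03 and that of the members to -0.29. Same-numbered samples deviated together weakly (correlations across genes of 0.055, 0.004, 0.046 and 0.083 for numbers 1 to 4), and control replicate 1 was closer to p16 replicate 2 (0.057). No correlation passed 0.1, so the numbers were not taken to pair the samples. With a replicate block 4 members, 2 synthesis enzymes and 5 related genes fell, beside 3.07% of all genes, the added member being Abca1 (limma adjusted p = 0.0180). Depth limits Insig1, Nr1h3 and Scarb1.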
